A study of Mus musculus with 3 samples.

Results

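LepR+ stromal cells that carried at least 3 unique molecular identifiers (UMIs) of Aldh1a2 made up 358 of the 24081 cells kept from aging mouse bone marrow, and of 4107 LepR+ cells. A LepR+ cell was taken as a cell with at least 10 UMIs of Cxcl12, at least 1 of Lepr and none of Cdh5, and LepR+ cells with no Aldh1a2 UMI served as comparison cells (3164 cells). The study sequenced single stromal cells negative for lineage markers, CD45 and CD71, sorted from enzymatically dissociated femurs and tibias of unmanipulated C57BL/Ka background mice aged 2, 12 or 24 mo. It aged male and female mice, and the 3 mice of an age were pooled into 1 library whose barcodes do not name the mouse. The gate on Aldh1a2 found 100, 122 and 136 cells in the 2, 12 and 24 mo libraries, where the comparison cells numbered 1356, 338 and 1470.

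The libraries held 9079 to 12420 barcodes and 84853330 to 104596341 UMIs, and kept cells had medians of 6629 to 8382 UMIs. Members had medians of 6312.5, 5415.5 and 5278 UMIs at 2, 12 and 24 mo, against 4804.5, 6744 and 4495 in the comparison cells. Barcodes that occurred in more than 1 library numbered 45 among kept cells, and 1 of them was a member. UMIs of blood cells differed between the groups: 8 erythroid marker genes summed to 61810, 5200 and 147100 CPM (counts per 1e6 UMIs) in the comparison cells and to 4685, 6906 and 6277 CPM in members. Cells with over 5% of their UMIs in the erythroid and neutrophil marker lists numbered 34, 2 and 49 among the comparison cells and 0, 2 and 1 among members.

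Aldh1a2 encodes a retinaldehyde dehydrogenase that makes retinoic acid, the form of vitamin A that binds nuclear receptors (Rara, Rarb, Rarg and their partners Rxra, Rxrb and Rxrg) and switches target genes. Its substrate comes from retinol through retinol dehydrogenases such as Rdh10, and Cyp26 enzymes break the product down. LepR+ cells are the perivascular stromal cells of bone marrow that make the chemokine Cxcl12 and stem cell factor (Kitl) for hematopoietic stem cells and can form bone and fat.

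Members were chosen by their UMIs of Aldh1a2, Cxcl12, Lepr and Cdh5, so these values are given as a description. Aldh1a2 (chr9:71215789-71296243 on GRCm38, plus strand) stood at 986, 764 and 863 CPM in the summed members at 2, 12 and 24 mo, with at most 28, 14 and 25 UMIs in a cell. Lepr was 1438, 1681 and 1799 CPM in members and 987, 1077 and 1093 CPM in the comparison cells. Cxcl12 was 25360, 22650 and 24930 CPM in members and 27220, 18830 and 17500 CPM in the comparison cells, so its order between the groups was not the same at every age. Just inside the limit, with 3 Aldh1a2 UMIs, were 26, 46 and 55 cells, and just outside, with 2, were 51, 61 and 88 cells. Angptl1, a secreted angiopoietin-like protein, read 265, 286 and 296 CPM in the former and 224, 343 and 305 CPM in the latter, so the groups on either side of the limit were close in this marker.

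Aldh1a2 transcripts were rare outside the gate. Kept cells outside it had 0.533, 0.774 and 0.791 Aldh1a2 CPM, against 96.5, 202 and 93.1 CPM over all LepR+ cells. Of the cells outside the gate 0.508%, 0.531% and 0.611% had an Aldh1a2 UMI at median depths of 9354, 8808.5 and 8024 UMIs, while 16.8%, 43.95% and 21.6% of LepR+ cells had one at 4907, 5796 and 4592 UMIs. At least 3 Aldh1a2 UMIs were found in 2 of 5903, 5 of 6218 and 3 of 7853 cells outside the gate. Counting intervals and limits here cover counting error only.

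The label held for LepR+ cells in every library. All 13 LepR+ cell markers, among them Adipoq, Pdgfra, Ebf3 and Foxc1, were detected above 20 CPM in members and summed to 23200, 16580 and 16910 CPM, against 24560, 15210 and 13440 CPM in the comparison cells. Endothelial markers were low: 4, 2 and 2 of 8 were detected in members, at summed levels of 10.9, 3.85 and 10.1 CPM. Osteoblast markers summed to 6081, 4628 and 5475 CPM in members and to 4193, 2553 and 2858 CPM in the comparison cells, most of it from Ibsp, which was 5918, 4297 and 5055 CPM in members. No mesothelial or muscle marker had a UMI in members, and fibroblast markers summed to 12.4, 52.6 and 5.04 CPM. The dendritic cell list was higher in members, at 1170, 518 and 473 CPM against 300.2, 276 and 306 CPM, and 1 of its 7 genes, Bst2, was above 20 CPM there, at 1157, 502.5 and 451 CPM. The neutrophil list summed to 13.98 and 75.6 CPM in members at 2 and 12 mo and to 4387 CPM at 24 mo, where 1 member held 35.6% of its UMIs in these genes.

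Members were a larger share of LepR+ cells in the 12 mo library. They made up 6.13% of LepR+ cells at 2 mo (95% Clopper-Pearson interval 5.02 to 7.41), 20.2% at 12 mo (17.1 to 23.7) and 7.26% at 24 mo (6.12 to 8.53). After each cell was thinned to 3000 UMIs the shares were 3.40%, 12.45% and 4.30%, with 245, 83 and 398 shallower LepR+ cells left out, 3, 6 and 9 of them members. With 1 library per age there was no test between ages. The paper's own cluster of LepR+ cells with Aldh1a2, given as a share of all stromal cells, was lowest at 12 mo. That cluster came from unsupervised clustering and not from this gate, so the 12 mo share here does not describe it.

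The members came mainly from cells with Xist, the RNA that coats the inactive X chromosome of female cells. Of members with either Xist or UMIs of 4 genes of the Y chromosome (Uty, Kdm5d, Eif2s3y and Ddx3y), but not both, 80.5% (70.6 to 88.2) carried Xist at 2 mo, 87.3% (79.6 to 92.9) at 12 mo and 66.7% (57.5 to 75.0) at 24 mo. Among the comparison cells the same share was 2.64%, 25.3% and 4.14%, and over all LepR+ cells 11.2%, 49.7% and 13.7%. Cells with neither kind of UMI numbered 13, 12 and 15 among members and 521, 75 and 597 among the comparison cells. They are left out of these shares and of all contrasts split by Xist and Y-linked UMIs. In each of the 3 libraries the interval of the members lay above that of the comparison cells. In LepR+ cells with Xist, Aldh1a2 stood at 725, 503 and 660 CPM, and in those with Y-linked UMIs at 32.6, 50.3 and 53.7 CPM.

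Read the other way, members were 60.3% (50.8 to 69.3), 39.3% (33.2 to 45.8) and 49.7% (41.7 to 57.7) of LepR+ cells with Xist, and 1.85% (1.08 to 2.94), 5.67% (3.13 to 9.33) and 3.93% (2.82 to 5.31) of those with Y-linked UMIs. The higher share of members at 12 mo was therefore not seen among LepR+ cells with Xist alone, where the 12 mo library gave the lowest of the 3 values. Among those with Y-linked UMIs the 12 mo library gave the highest of the 3. Because a library pools 3 mice and the number of each sex is not given in the sources used here, sex and the individual mouse cannot be told apart.

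**Figure D1:**
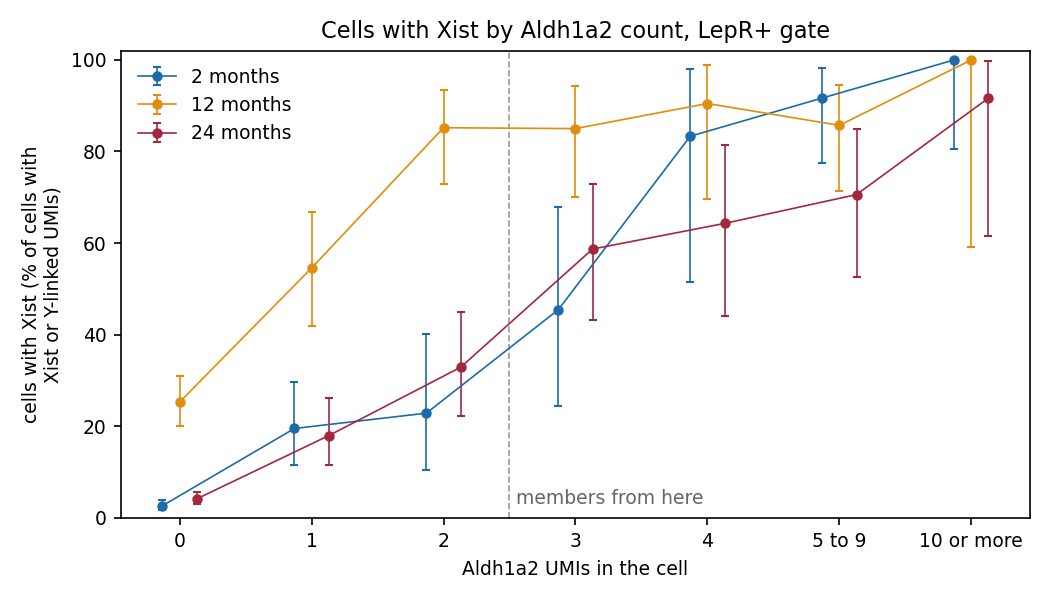
The share of cells with Xist (percent of cells with Xist or Y-linked UMIs but not both, y axis) against the number of Aldh1a2 UMIs in the cell (x axis), for LepR+ cells of the 2 mo (blue), 12 mo (orange) and 24 mo (red) libraries, with 95% Clopper-Pearson bars. The share went from 2.64%, 25.3% and 4.14% of cells with no Aldh1a2 UMI to 100%, 100% and 91.7% of cells with 10 or more.

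The share with Xist was also higher among members with more Aldh1a2, as the plot by UMI count shows. It was 45.5%, 85.0% and 58.7% of members with 3 UMIs, 91.7%, 85.7% and 70.6% of those with 5 to 9, and 17 of 17, 7 of 7 and 11 of 12 cells with 10 or more. At 12 mo it lay between 85.0% and 90.5% in every bin from 2 to 9 UMIs. Median depth was higher in the cells with 10 or more Aldh1a2 UMIs (8375, 6364.5 and 6341 UMIs) than in those with 3 (5197, 5512.5 and 4807 UMIs), and the part of depth in this pattern was not tested.

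Against comparison cells of the same library, members had more RNA of 9 genes, among them Ptn, Sfrp2 and Lox, and less of 5, among them Jun, Fos and Fabp4. In sums per library and group, tested with edgeR's quasi-likelihood test over 3 libraries, 9 of 6547 autosomal genes were higher (0.137%) and 5 lower (0.0764%) at an adjusted p under 0.05. Ptn (chr6:36714929-36810220, minus strand), which encodes pleiotrophin, a heparin-binding growth factor that supports hematopoietic stem cells, was 137, 114 and 65.5 CPM in members and 8.10, 10.6 and 8.41 CPM in the comparison cells at 2, 12 and 24 mo. The groups did not overlap, and the log2 fold change was 3.40 ± 0.26 (SE) with an edgeR adjusted p of 0.00411. Slco1a4, an organic anion transporter with near relatives beside it whose reads could be divided, was 104, 75.6 and 75.6 CPM in members and 15.1, 8.91 and 13.2 CPM in the comparison cells (log2 fold change 2.65 ± 0.20, edgeR adjusted p = 0.00411).

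Wnt modulators were 3 of the 9 higher genes. Sfrp2, a secreted frizzled-related protein, was 51.3, 19.2 and 68.1 CPM in members against 4.12, 5.94 and 8.41 CPM (log2 fold change 2.83 ± 0.34, edgeR adjusted p = 0.0309). The R-spondins, which strengthen Wnt signaling at its receptors, were less far apart: Rspo2 was 360.4, 206 and 171 CPM against 182, 66.6 and 63.7 CPM, and Rspo3 was 396, 187 and 195 CPM against 213, 94.2 and 72.9 CPM (log2 fold changes of 1.24 ± 0.16 and 1.01 ± 0.13). For both R-spondins the lowest member library lay below the highest comparison library, so the groups differed within each library and overlapped across libraries. Lox, the enzyme that cross-links collagen and elastin, was 770.4, 353 and 599 CPM in members against 292, 199.9 and 187 CPM (log2 fold change 1.21 ± 0.17, edgeR adjusted p = 0.0444). Tgfb2 (a TGF-beta ligand, log2 fold change 1.66 ± 0.19), Frmd4b (a FERM domain scaffold protein, 1.88 ± 0.20) and Adamtsl3 (a secreted matrix glycoprotein, 1.46 ± 0.17) completed the higher genes.

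The lower genes included Jun and Fos, which encode the subunits of the AP-1 transcription factor. Jun was 238, 83.3 and 74.4 CPM in members against 631, 312 and 233 CPM, a log2 fold change of -1.73 ± 0.15 with an edgeR adjusted p of 0.00861. Fos was 581, 192 and 212 CPM against 1268, 593 and 358 CPM (-1.26 ± 0.17), and Btg2, an antiproliferative early response gene, was 31.1, 43.6 and 15.1 CPM against 90.3, 95.5 and 49.0 CPM (-1.49 ± 0.20). Fabp4, a fatty acid carrier of adipocytes and endothelium, was 21.75, 14.1 and 26.5 CPM in members and 74.3, 56.4 and 55.4 CPM in the comparison cells, with no overlap (-1.66 ± 0.21). Postn (periostin, a matrix protein of bone and fibroblasts) was lower in the fit, but its counts sat almost wholly in the comparison cells of the 12 mo library, at 193 CPM, and at 2 mo it was 1.55 CPM in members and 1.24 CPM in the comparison cells.

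The number of genes called depended on the libraries and the cells left in. It was 5 without the 2 mo library, 152 without the 12 mo library and 1 without the 24 mo library, with 4 of 14, 13 of 13 tested and 1 of 14 of these genes still called. Ptn was called in each of 15 alternative settings that did not split cells by Xist and Y-linked UMIs. It was not called within cells with Xist and not tested within cells with Y-linked UMIs, as given below. Without the cells rich in erythroid or neutrophil UMIs 40 genes were called, with the 14 among them.

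**Figure D2:**
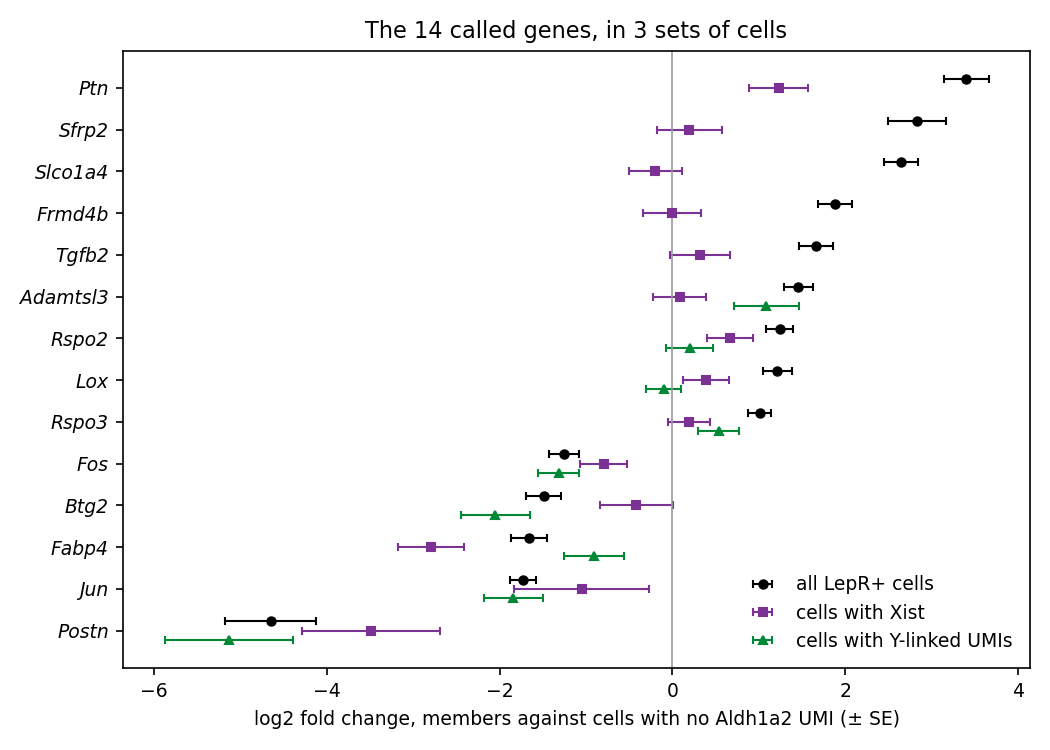
Log2 fold change of members against comparison cells (x axis, bars are ± SE of the edgeR fit over 3 libraries) for the 14 called genes, in all LepR+ cells (black circles), cells with Xist (purple squares) and cells with Y-linked UMIs (green triangles, absent where a gene did not pass the expression limit). Slco1a4 lies at 2.65 in all cells and at -0.20 in cells with Xist, while Fabp4 lies at -1.66 and -2.79.

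Within cells with Xist, the 9 higher genes had smaller log2 fold changes between members and comparison cells than over all LepR+ cells. Median depth there was 6603.5, 5203.5 and 4888.5 UMIs in members but 5299.5, 3530 and 3584 UMIs in comparison cells. A shallower cell can hold Aldh1a2 RNA without a UMI of it, and no depth-matched contrast was run within cells with Xist. There the edgeR test called 2 of 6548 genes higher (0.0305%) and 1 lower (0.0153%), and the 9 genes that were higher over all LepR+ cells were not called. Slco1a4 was 136, 107 and 125 CPM in members with Xist and 309.8, 76.2 and 93.4 CPM in comparison cells with Xist (log2 fold change -0.20 ± 0.31). Rspo2 differed by 0.67 ± 0.27. Frmd4b (-0.01 ± 0.34), Adamtsl3 (0.08 ± 0.31), Rspo3 (0.19 ± 0.25), Sfrp2 (0.20 ± 0.37), Tgfb2 (0.32 ± 0.35) and Lox (0.38 ± 0.27) differed by less. With SEs of this size the lack of a call does not show that the groups were alike. Ptn, with the widest gap of the 9, was at 179.8, 160 and 96.85 CPM against 142, 53.4 and 16.5 CPM (1.23 ± 0.34), but with an edgeR adjusted p of 0.658. Angptl1, a marker of the group, was 450.5, 291 and 326 CPM in members and 77.8, 81.5 and 137 CPM in comparison cells overall (1.78 ± 0.28, edgeR adjusted p = 0.110), and 548, 384 and 380.3 CPM against 690.4, 400.2 and 242 CPM within cells with Xist (0.02 ± 0.26).

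Fabp4 was the lower gene within cells with Xist, at 14.5, 16.4 and 21.3 CPM in members and 44.3, 114 and 203 CPM in comparison cells (log2 fold change -2.79 ± 0.38, edgeR adjusted p = 0.00113). Cxcl9, an interferon-induced chemokine, was higher, at 608, 287 and 116 CPM against 79.7, 118 and 38.5 CPM (1.84 ± 0.32, edgeR adjusted p = 0.0164), although 166 of its 294 UMIs in members at 2 mo lay in 1 cell, and without the 2 mo library it was not called (1.33, edgeR adjusted p = 0.338). The other higher gene, Camp, a neutrophil granule protein, rested on 76 UMIs in the 1 member at 24 mo rich in neutrophil transcripts, and it was not tested without that cell. The comparison cells with Xist numbered 22, 66 and 36, which limits the precision of this contrast: 5 to 25 genes were called in settings that left out a library or doublet-like cells, 14 without the 2 mo, 25 without the 12 mo and 15 without the 24 mo library. Scaling by library totals gave 4 genes higher and 4 lower, and DESeq2 gave 0 higher and 1 lower. Cxcl9 and Fabp4 were chosen for their calls in this contrast.

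Members with Y-linked UMIs were few (17, 14 and 40 cells), and were compared with the 811, 195 and 833 comparison cells with Y-linked UMIs. The edgeR test called 27 of 6641 genes higher (0.407%) and 98 lower (1.48%) in a contrast added after the data had been seen, as were the genes named from it here. Of the 9 genes that were higher over all LepR+ cells none was called here, and 5 of them (Ptn, Slco1a4, Sfrp2, Tgfb2 and Frmd4b) did not pass the expression limit. Jun, Fos, Btg2 and Postn were called lower here too, in a contrast that shares its cells with that over all LepR+ cells. Igf1, a growth factor, was 641, 209 and 345 CPM against 282, 124 and 170 CPM (0.89 ± 0.18, edgeR adjusted p = 0.00191), and the small proteoglycans Lum and Dcn, the matrix glycoprotein Fbln1, the protease Adamts5 and the ligand Bmp6 were also higher, by 0.70 to 1.16 on the log2 scale.

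The lower genes in cells with Y-linked UMIs included genes of dividing cells and a gene of red cells. Mki67, a marker of dividing cells, was 0, 6.32 and 3.48 CPM in members and 103, 27.5 and 183 CPM in comparison cells, and 10 of 15 tested cell cycle genes were lower. Slc4a1, the anion exchanger of red cells, was 10.2, 0 and 10.45 CPM against 110.5, 19.9 and 128 CPM. Comparison cells with Y-linked UMIs included 22, 1 and 25 cells over 5% in blood cell markers and the members none. Without such cells 49 genes were called, and of the first 125 genes 104 were tested and 48 still called. Without the 24 mo library 50 genes were called.

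Cells with Xist were compared with cells with Y-linked UMIs, among members and among comparison cells, in contrasts and with genes chosen after the data had been seen. Among members, 26 of 6597 genes were higher in cells with Xist (0.394%) and 29 lower (0.44%), and among comparison cells 14 of 6589 were higher (0.212%) and 24 lower (0.364%). Genes called in both were Ptn, Slco1a4, Lox, Bst2, Col11a1, Enpep and Stat5a (7 higher, 26.9% of the first list and 50% of the second) and Spp1, Ly6a, Des, Hes1, Olfml3, Cldn10 and Rgs7bp (7 lower, 24.1% and 29.2%). Both contrasts use the same 3 libraries. Among comparison cells, which also serve as the controls of members, the other genes that were higher in members had log2 fold changes of Xist to Y-linked cells of 3.29 ± 0.60 for Sfrp2 (edgeR adjusted p = 0.0169), 2.53 ± 0.40 for Frmd4b (0.00388), 1.80 ± 0.34 for Adamtsl3 (0.0180), 1.83 ± 0.41 for Tgfb2 (0.0543), 1.12 ± 0.27 for Rspo3 (0.0864) and 1.08 ± 0.33 for Rspo2 (0.280). In that contrast Ptn was at 3.54 ± 0.65, Slco1a4 at 4.48 ± 0.53 and Lox at 1.33 ± 0.26, so 6 of these 9 genes passed its test. It rested on 22, 66 and 36 comparison cells with Xist. Their median depths were 5299.5, 3530 and 3584 UMIs, against 5198, 8453 and 5153 UMIs in comparison cells with Y-linked UMIs. Members with Xist had medians of 6603.5, 5203.5 and 4888.5 UMIs, against 5694, 10781.5 and 6851 UMIs in members with Y-linked UMIs. The part of depth in these contrasts was not tested. Over all LepR+ cells 32 of 6575 genes were higher (0.487%) and 23 lower (0.35%).

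Bst2, tetherin, an antiviral membrane protein, was 1389, 619.9 and 617 CPM in members with Xist, 264, 202 and 229.8 CPM in members with Y-linked UMIs, 1071, 614 and 407 CPM in comparison cells with Xist and 261, 210.3 and 224 CPM in those with Y-linked UMIs. The log2 fold change of Xist to Y-linked cells was 1.84 ± 0.23 in members (edgeR adjusted p = 0.00397) and 1.46 ± 0.29 in comparison cells (0.0233). Spp1, osteopontin, ran the other way, at 331, 145 and 63.8 CPM in members with Xist and 1831, 2921 and 710.4 CPM in members with Y-linked UMIs (-3.36 ± 0.34, edgeR adjusted p = 0.00236). Stat5a, which carries signals of cytokine and growth hormone receptors, was 246, 70.9 and 156 CPM against 81.4, 18.96 and 55.7 CPM in members (1.65 ± 0.28, edgeR adjusted p = 0.0163). Greb1, a gene that answers to estrogen, had no UMI in any LepR+ cell with Y-linked UMIs and stood at 64.1, 20 and 61.4 CPM in members with Xist. Lpl, the lipase of lipoprotein triglycerides, was higher in members with Xist, at 3303, 1871 and 1802 CPM against 1932, 765 and 971.5 CPM (1.04 ± 0.17, edgeR adjusted p = 0.0163), and the proteoglycan Lum was lower, at 39.3, 83.6 and 54.3 CPM against 153, 322 and 345 CPM (-2.16 ± 0.25, edgeR adjusted p = 0.00236).

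The count among members rested on the 24 mo library, which held 40 of the 71 members with Y-linked UMIs. Without it edgeR called 0 genes (402 at an unadjusted p under 0.05), while it called 169 without the 2 mo and 185 without the 12 mo library, and DESeq2 on all 3 libraries called 8 higher and 18 lower. Among comparison cells DESeq2 called 16 higher and 13 lower. A test of whether the difference between members and comparison cells was itself unlike in cells with Xist and with Y-linked UMIs (edgeR interaction term) gave 4 of 6609 genes larger (0.0605%) and 1 smaller (0.0151%) in cells with Xist, Cxcl9 among the former.

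**Figure D3:**
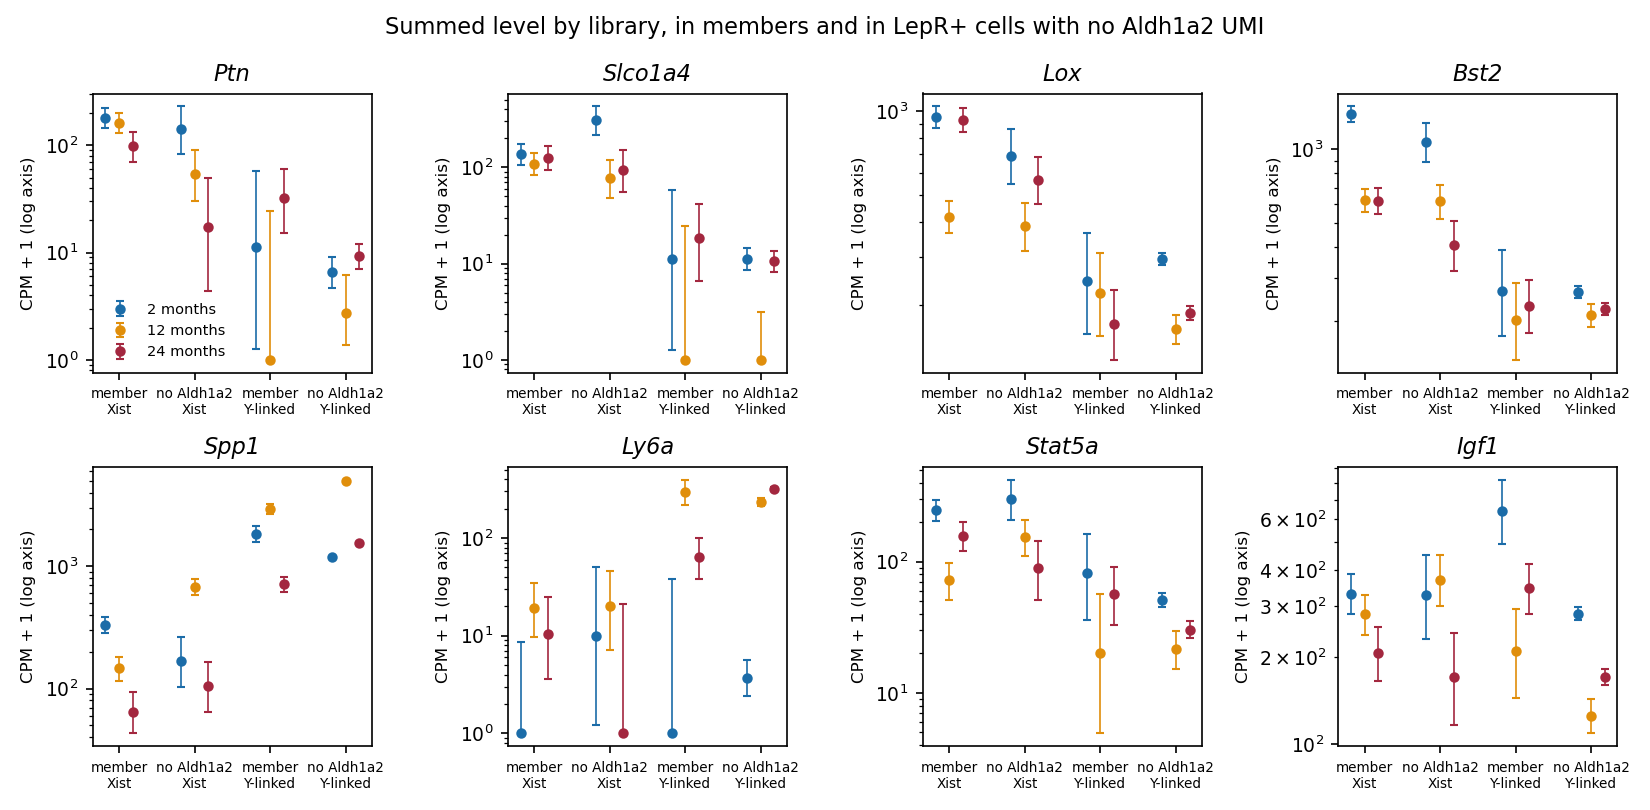
Summed level (CPM + 1, log axis, bars are 95% Poisson intervals) of 8 genes in members and LepR+ cells with no Aldh1a2 UMI, split into cells with Xist and cells with Y-linked UMIs (x axis), in the 2 mo (blue), 12 mo (orange) and 24 mo (red) libraries. Ptn, Slco1a4, Lox and Bst2 sit higher in both groups with Xist, and Spp1 sits higher in both groups with Y-linked UMIs.

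Other genes of retinoid supply did not pass the test or were too low to test. Of 22 genes in this list 6 were tested, and none was called higher or lower (median log2 fold change 0.31, against 0.00 over all genes). Rbp4, the retinol carrier of plasma, was 101, 30.8 and 22.7 CPM against 27.5, 21.6 and 16.7 CPM (0.99 ± 0.33, edgeR adjusted p = 0.480). Dhrs3, which turns retinaldehyde back to retinol, was 107, 147 and 140 CPM against 114, 169 and 97.8 CPM (-0.01 ± 0.15).

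The sister enzymes of Aldh1a2 were low in members: Aldh1a1 had 1.55, 12.8 and 5.04 CPM and Aldh1a3 1.55, 3.85 and 2.52 CPM. Rdh10, which makes the substrate of Aldh1a2, was 20.2, 21.8 and 25.2 CPM in members and 20.9, 17.8 and 13.9 CPM in comparison cells and did not pass the expression limit. Stra6, Lrat, Rbp7, Bco1 and Bco2 had no UMI in members of any library.

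Receptors and targets of retinoic acid were close between the groups. In the list of 20 binding proteins, receptors and breakdown enzymes 9 were tested and none was called (median log2 fold change -0.12, against 0.00 over all genes). Rara was 32.6, 39.7 and 35.3 CPM in members against 34.3, 40.3 and 26.6 CPM, and Rarg was 34.2, 60.3 and 52.9 CPM against 41.6, 67.9 and 44.3 CPM. Rarb, a receptor that is also a target, had 1.55, 8.97 and 10.1 CPM in members, and Cyp26a1 and Cyp26c1 had no UMI in members of any library. Tgm2, a transglutaminase induced by retinoic acid in many cells, was 54.4, 100 and 102.1 CPM against 36.4, 103 and 74.7 CPM (0.22 ± 0.16, edgeR adjusted p = 0.811).

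**Figure D4:**
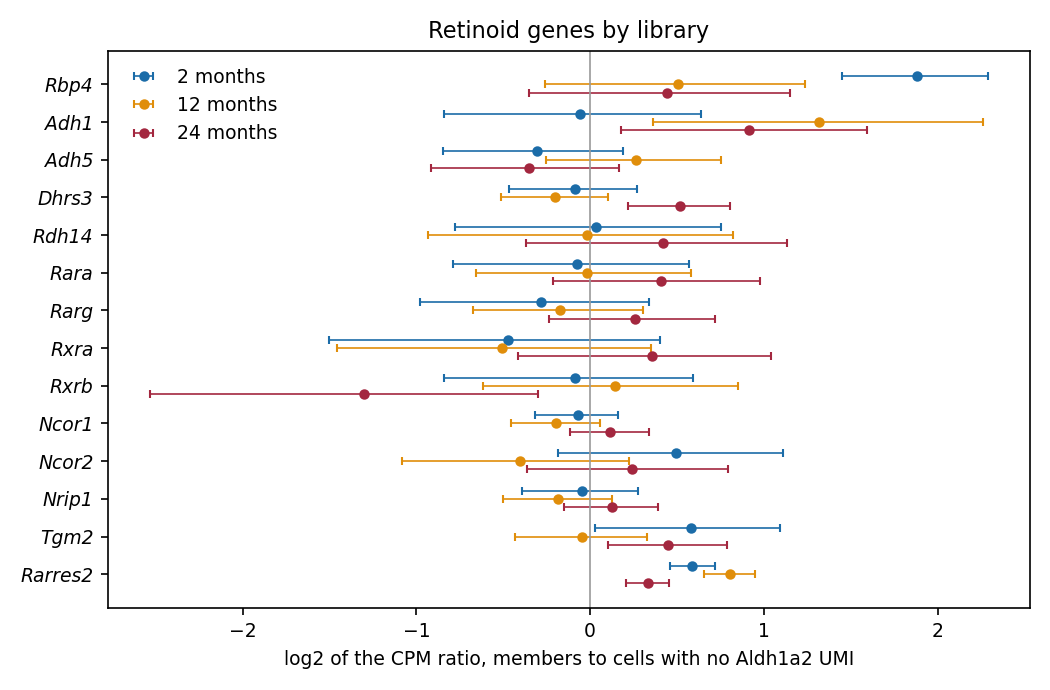
Log2 of the CPM ratio of members to comparison cells (x axis, bars are 95% exact intervals for counting error) for 14 retinoid genes tested over all LepR+ cells, by library (2 mo blue, 12 mo orange, 24 mo red). Rbp4 and Rarres2 lie right of 0 in all 3 libraries, and none of the genes shown passed the test.

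Of 21 tested niche factors 1 was called, Ptn, and the median log2 fold change was 0.06. Kitl was 2693, 2265 and 2233 CPM in members against 2425, 1683 and 1673 CPM (0.24 ± 0.18, edgeR adjusted p = 0.802). Il7, the growth factor of B cell progenitors, was 286, 128 and 154 CPM against 153, 79.8 and 52.6 CPM (0.96 ± 0.16, edgeR adjusted p = 0.0889), higher in each library but short of the threshold, and Bmp6, a BMP ligand, was 356, 267 and 296 CPM against 226, 110 and 158 CPM (0.85 ± 0.16, edgeR adjusted p = 0.124). Spp1 lay the other way in each library, at 694, 761.5 and 324 CPM in members against 1196, 4688 and 1253 CPM (-1.89 ± 0.35, edgeR adjusted p = 0.172).

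Immediate early genes were the list with the lowest median: 16 of 16 tested genes had a negative fold change and 3 were called lower (Jun, Fos and Btg2), with a median log2 fold change of -1.09. Within cells with Xist 15 were tested, none was called, and the median was -0.30; within cells with Y-linked UMIs 5 of 16 were lower (median -0.67). These genes also respond to dissociation of tissue, and the part of handling in the difference was not tested. Of 45 tested interferon-regulated genes none was called over all cells (median 0.00). Within cells with Xist 1 was higher, Cxcl9 (median 0.26), and within cells with Y-linked UMIs 4 were lower, Cxcl9, Cxcl10, Isg15 and Rsad2 (median -0.29). Leaving out cells with UMIs of both Ly6a and Cxcl9 kept 1352, 315 and 1065 of 1356, 338 and 1470 comparison cells. It kept 100, 118 and 127 of 100, 122 and 136 members. The part of such cells in the calls within cells with Y-linked UMIs was not tested.

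Matrix and differentiation lists held few calls. In the list of elastic fiber and small proteoglycan genes 1 of 21 was higher, Lox, and the median was 0.34. Adipogenic genes gave 1 lower gene of 11, Fabp4, with Lpl at 3018, 1531 and 1410 CPM in members against 2565, 821 and 992 CPM (0.46 ± 0.20, edgeR adjusted p = 0.626). Osteogenic genes gave 1 lower of 19, Postn, and a median of -0.31. Wnt genes gave 3 higher of 14 and BMP and TGF-beta genes 1 higher of 26, all named above. Of the 24 lists 16 held no called gene, with medians from -0.76 (cell cycle genes, 16 tested) to 0.31 (retinoid supply).

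Between ages, with 1 library each, Bmp4 was lower and the noncoding RNA Snhg11 higher in the 24 mo members. Of 4651 genes with at least 30 UMIs in the higher library, 494 were at least 1.5-fold higher at 24 than at 2 mo (10.6%) and 308 at least 1.5-fold lower (6.62%), with no test. Bmp4, a ligand that acts on bone and fat precursors, was 572, 133 and 79.4 CPM at 2, 12 and 24 mo, a ratio of 24 to 2 mo of 0.139 (95% interval 0.105 to 0.182). The comparison cells read 388, 77.7 and 56.4 CPM (ratio 0.146), and members with Xist 628, 144 and 113 CPM (0.180). UMIs of Bmp4 were found in 79.0%, 41.0% and 25.0% of members.

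Other genes with lower levels at 24 mo were Palmd (54.4, 10.3 and 5.04 CPM, ratio 0.0927, 0.0239 to 0.259), Timp4, an inhibitor of matrix metalloproteinases (88.5, 20.5 and 13.9 CPM, ratio 0.157), and Rbp4 (ratio 0.225, 0.125 to 0.384). Pparg, the master factor of fat cell formation, was 102.5, 59.0 and 31.5 CPM (ratio 0.307, 0.186 to 0.494), and the comparison cells read 86.6, 51.3 and 34.2 CPM. Il17d (a cytokine), Ccn1 (a matricellular protein) and Cavin2 (a coat protein of caveolae) had ratios of 0.263, 0.279 and 0.304 in members and 0.404, 0.551 and 0.324 in comparison cells. Aldh1a2, which the rule used, had a ratio of 0.875 in members and 1.00 in members with Xist.

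Snhg11, a long noncoding host gene, was 6.21, 71.8 and 364 CPM in members (ratio 58.6, 22.65 to 217) and 1.51, 114 and 316 CPM in comparison cells. It was found in 2.00%, 18.03% and 59.6% of members. Ly6a, which encodes Sca1, had no UMI in members at 2 mo and 97.4 and 41.6 CPM at 12 and 24 mo, which was at least 8.93-fold higher at 24 mo against the level of 3 counts. The remaining 6 of the 8 highest genes (Retnlg, Ngp, S100a8, S100a9, Lcn2 and Camp) were neutrophil genes at 101 to 2004 CPM at 24 mo. Without the cells rich in blood markers they were at 0 to 14.04 CPM there.

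**Figure D5:**
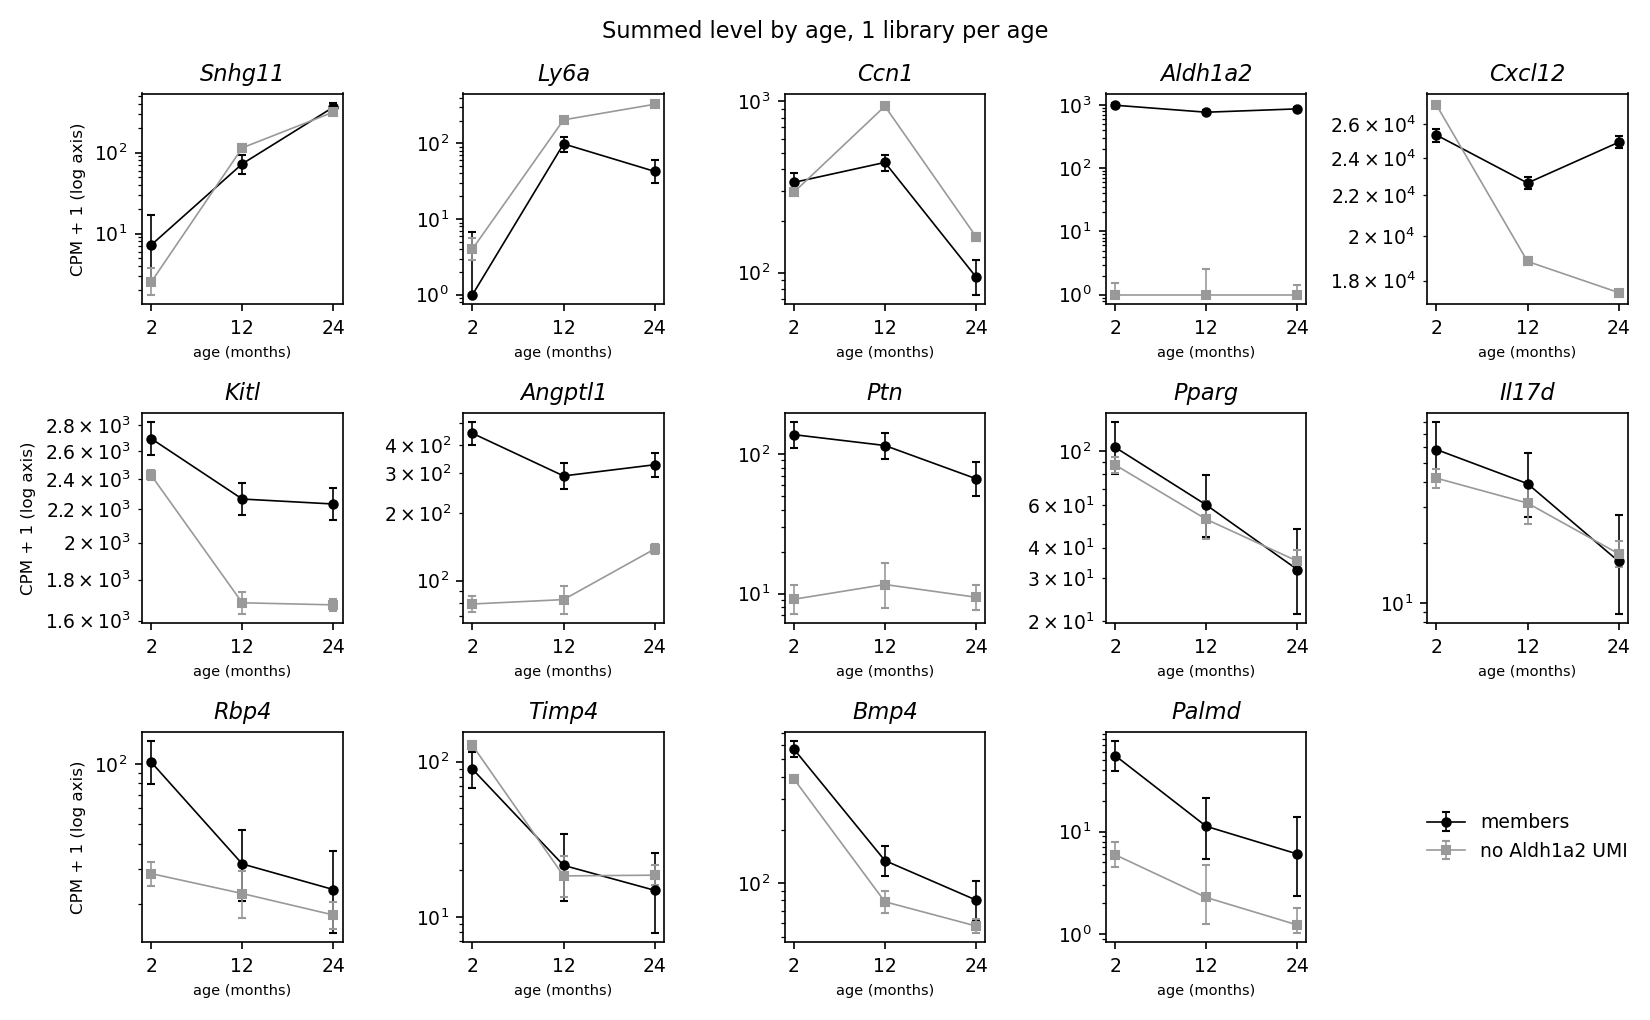
Summed level (CPM + 1, log axis) of 14 genes by age in mo (x axis), in members (black circles) and LepR+ cells with no Aldh1a2 UMI (grey squares), with 95% Poisson bars and 1 library per age. Bmp4, Palmd, Timp4 and Pparg are lower at 24 than at 2 mo in both groups, and Snhg11 and Ly6a are higher.

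Among gene lists, immediate early genes stood apart between ages: 7 of 10 were at least 1.5-fold lower in members at 24 mo and none higher. Their median log2 ratio was -1.25 against 0.03 over all genes. Comparison cells also had less Jun and Fos at 24 than at 2 mo, as given above, so this fall was not particular to members. Over all 4651 genes 6.62% were lower and 10.6% higher, beside which the counts of each list stand. Of 21 BMP and TGF-beta genes 6 were lower and none higher, among them Bmp4, Id1 and Tgfb2. Of 18 niche factors 6 were lower (Bmp4, Igf1, Il7, Ptn, Spp1 and Vcam1) and 2 higher (Ccl19 and Jag1), and of 10 adipogenic genes 4 were lower and 1 higher. Angptl1 went from 450.5 to 326 CPM in members (ratio 0.725, 0.611 to 0.860), Kitl from 2693 to 2233 CPM (0.829, 0.776 to 0.887) and Cxcl12 from 25360 to 24930 CPM (0.983), while in comparison cells the ratios were 1.76, 0.690 and 0.643. In members with Xist 223 of 3039 genes were at least 1.5-fold higher (7.34%) and 340 lower (11.2%), so the balance of directions was not that of all members.

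Members varied among themselves. Angptl1 UMIs were found in 82.9%, 75.0% and 70.0% of members with Xist and in 29.4%, 35.7% and 55.0% of those with Y-linked UMIs, and Ptn UMIs in 40.0%, 37.5% and 18.8% against 5.88%, 0% and 12.5%. For Ptn, the 14 such cells at 12 mo allow a share of cells with a UMI of up to 21.4%, which sets no limit on the share that express it. UMIs of both Ly6a and Cxcl9 were found in 13 of the 358 members, Cxcl9 without Ly6a in 78 and Ly6a without Cxcl9 in 25. Ly6a was in 64.3% and 25.0% of members with Y-linked UMIs at 12 and 24 mo and in 6.25% and 3.75% of members with Xist.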

How the data were processed

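Single-cell RNA sequencing libraries of 3 ages were used, 1 library per age from 3 pooled mice. As deposited by the authors, the values are raw UMI counts, not normalized. The submitters' processing notes name Cell Ranger 6.1.2, the mm10 build, Seurat 4.2.3 and R 4.0.2. Unused columns numbered 0. A cell was kept if it had from 200 up to 10000 genes detected, between 500 and 100000 UMIs, and less than 7.5% of them mitochondrial. Doublets were left in. Scrublet's own limit marked 72, 7 and 134 cells, too few at 12 mo, so leaving out the 6% with the highest scores was an alternative (9 members). The members and gene lists were chosen with earlier results of these data known.

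Counts were summed per library and group, since cells are not replicates. Autosomal genes with a mean of at least 20 CPM were tested with edgeR 4.0.16 (TMM factors, quasi-likelihood, Benjamini-Hochberg, R 4.3.3), with library as a block, 6 sums and 2 residual degrees of freedom. Each library comes from different mice, but the libraries also differ in age, so p-values measure how a difference varies across these 3 libraries. Aldh1a2, Lepr, Cxcl12 and Cdh5 were not tested. Gene positions come from GENCODE M21, which matched 32235 of 32285 gene IDs. Between ages, CPM ratios have exact conditional binomial intervals. On simulated counts with the real depths, 98% of genes changed 2-fold were recovered over all LepR+ cells and 80% in cells with Xist. The changed genes were drawn only from levels far above the 20 CPM limit, at a fixed dispersion not taken from these libraries. These shares therefore do not give the recovery of genes near the limit or at the real spread between libraries.

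Genes named are those of the gate, called genes at least 1.5-fold apart in each library (up to 15 higher and 10 lower), called or high genes of each list, the 8 highest and 8 lowest between ages, and genes said to be chosen after their values were seen, among them Il7, Bmp6, Igf1, Cxcl9, the retinoid genes and those of the contrasts of Xist with Y-linked cells. Some items are not reported here. Alternatives were DESeq2 1.42.0, other scaling and filters, other limits on Aldh1a2 and depth, and leaving out libraries or cells.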

Additional observations from a re-analysis of the deposited data

Results flagged for a closer look

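In a fit of 12 sums, edgeR's interaction term compared the difference between members and LepR+ cells with no Aldh1a2 UMI in cells with Xist with the same difference in cells with Y-linked UMIs, and it passed an adjusted p of 0.05 in 5 of 6609 genes. For Cxcl9 the difference was 3.53 larger on the log2 scale in cells with Xist (edgeR adjusted p = 0.00427), since members had more than comparison cells there in each library and less in cells with Y-linked UMIs, at 81.4, 37.9 and 494 CPM against 115, 344 and 1180 CPM. Most Cxcl9 UMIs in members with Xist at 2 mo lay in 1 cell, as given above. Its call within cells with Xist was lost without that library. The interaction was not fitted with a library left out. Cxcl10, a chemokine of the same family, differed by 4.80 (0.000701), with 161 of its UMIs in members at 12 mo in 1 cell. Saa3, an acute-phase protein, differed by 5.48 (0.0108) on UMIs in 2, 1 and 1 members with Xist. Slc4a1 differed by 4.07 (0.00829) and stands beside the erythroid UMIs of comparison cells given above; it was not tested without those cells. Prg4, lubricin, differed by -8.39 (0.00692): it had no UMI in members with Xist and was found in 12 of 14 members with Y-linked UMIs at 12 mo. What these differences stem from was not tested.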

How the results depend on the processing

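Over all LepR+ cells, where 14 genes were called, the count was 49 with DESeq2, 58 without TMM, 113 with no filter beyond 10 UMIs, 2 with a mean of at least 50 CPM, 3 without the library block, 28 and 38 with limits of 2 and 5 Aldh1a2 UMIs, 9 in cells with at least 4000 UMIs, 62 without the highest doublet scores, 40 without cells rich in blood markers (a setting chosen after seeing the data, as were the contrasts that involve Y-linked UMIs) and 1 to 152 with a library left out; it was 3 within cells with Xist and 125 within cells with Y-linked UMIs. With depth-matched comparison cells it was 15, with 8 of the 14 still called. Without cells with Ly6a and Cxcl9 it was 19, with 13 of the 14 still called. Within cells with Xist, where 3 genes were called, the count was 1 with DESeq2, 8 without TMM, 15 with no filter, 0 without the block (239 at an unadjusted p under 0.05), 11 with a limit of 5, 8 in cells with at least 4000 UMIs, 5 without the highest doublet scores, 6 without cells with Ly6a and Cxcl9 and 14 to 25 with a library left out; the depth-matched comparison within cells with Xist was not run, since members (70, 96 and 80) outnumber the 22, 66 and 36 comparison cells. Within cells with Y-linked UMIs (125) it was 36 with DESeq2, 49 without blood-rich cells and 50 to 260 with a library left out. For Xist against Y-linked cells it was 76 without blood-rich cells and 37 to 211 with a library left out among comparison cells (38), 26 with DESeq2 and 0 to 185 among members (55), and 100 with DESeq2, 88 without blood-rich cells and 30 to 343 among all LepR+ cells (55). Calls that were tested again in an alternative kept their sign, except 2 within cells with Y-linked UMIs without blood-rich cells and 1 of Xist against Y-linked cells among members with DESeq2. The share of members was 9.26%, 30.35% and 11.95% with a limit of 2, 3.68%, 8.62% and 2.67% with a limit of 5, 3.40%, 12.45% and 4.30% after thinning, 60.3%, 39.3% and 49.7% in cells with Xist and 1.85%, 5.67% and 3.93% in cells with Y-linked UMIs; the share of members with Xist was 63.9% and 53.9% (2 and 24 mo) with a limit of 2 and 94.3% and 76.1% with a limit of 5. Why the counts moved was not tested. No paired analysis between ages was possible because each age is 1 library and the labels give no replicate numbers. Within a library the groups were paired by the library block above. Depth limits genes under 20 CPM and groups of under 50 cells.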
